A study of Arabidopsis thaliana with 4 samples.

Results

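AT5G24240 is a gene on chromosome 5 of *Arabidopsis thaliana* that encodes a protein of the phosphatidylinositol 4-kinase gamma type with ubiquitin-like domains. It was chosen by its measured intensities, as the transcript with the highest rise from wild type to the ref6-1 mutant on these 4 arrays, so those values are described below and not tested. A single probe set carried the gene, 1 of the 22746 probe sets analysed. The suffix of its name, _at, marks probes meant to match a single transcript. The platform annotation and the RefSeq gene table gave the locus only under its code.

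RNA of whole seedlings was hybridised to 4 Affymetrix ATH1 arrays, short-oligonucleotide chips that read one intensity per probe set. Wild-type seedlings of the Col accession supplied 2 arrays, and seedlings of the ref6-1 mutant in the Col background supplied the other 2. All were untreated and 10 days old, and had grown on MS nutrient medium under long days (16 h light, 8 h dark) at a temperature of 23 °C. The labels call the 2 arrays of each genotype biological replicates and say no more of what separates them, so the spread between them may be technical in part, and their small number limits the precision.

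Phosphatidylinositol 4-kinases add a phosphate to the membrane lipid phosphatidylinositol and so make phosphatidylinositol 4-phosphate, from which other signalling lipids are built. The gamma-type proteins of plants carry ubiquitin-like domains next to their kinase domain, and for some of them protein phosphorylation has been reported in place of lipid phosphorylation. REF6 is a Jumonji-domain demethylase that removes methyl groups from lysine 27 of histone H3, a mark of silenced genes. This is background and was not measured on these arrays.

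The arrays were alike in their overall intensities, with medians between 142.6 and 146.3. The labelled tissue was checked with markers of green and root tissue, of which 2 of 5 and 2 of 4 were named on the array. RCA and LHCB4.1, which serve photosynthesis, read between 11560 and 13878, and the root hair expansins EXPA7 and EXPA18 read between 91.2 and 220. Of the pollen receptor kinases ANX1 lay between 27.1 and 39.8 and ANX2 between 12.7 and 22.4. None of the 5 seed markers was named. None of these 6 markers passed the test between the genotypes described below. The mutated gene REF6 has no named probe set in the platform annotation and was not analysed here, which leaves the genotype labels unchecked by it. In whole seedlings, more cells expressing a gene and more RNA per cell cannot be told apart.

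The transcript of AT5G24240 was low in both wild-type arrays and its intensity was about 10 times higher in both mutant arrays. Its intensity was 30.8 in Col replicate 1 and 27.4 in Col replicate 2. It was 322 in ref6-1 replicate 1 and 294 in ref6-1 replicate 2. The genotypes were far apart and the arrays within each were close. The higher array exceeded the lower by a factor of 1.12 in Col and of 1.10 in ref6-1. Averaged over the 2 arrays of a genotype, Col had 29.1 ± 2.38 (SD) and ref6-1 had 308 ± 20.1 (SD), and the ratio of these means was 10.6.

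The ratio did not hang on one array. The lowest mutant value was 9.55 times the highest wild-type value, and the highest mutant value was 11.8 times the lowest wild-type value. As log2(intensity + 16), a scale that compresses the change of a dim gene such as this one, the mean difference between ref6-1 and Col was 2.84. Over the 4 pairings of a mutant with a wild-type array this difference ran from 2.73 to 2.96. In each of the 4 pairings AT5G24240 had the highest difference of all 22746 probe sets, and the next probe set had between 1.42 and 1.71. The pairings share arrays and are not separate observations.

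**Figure D1:**
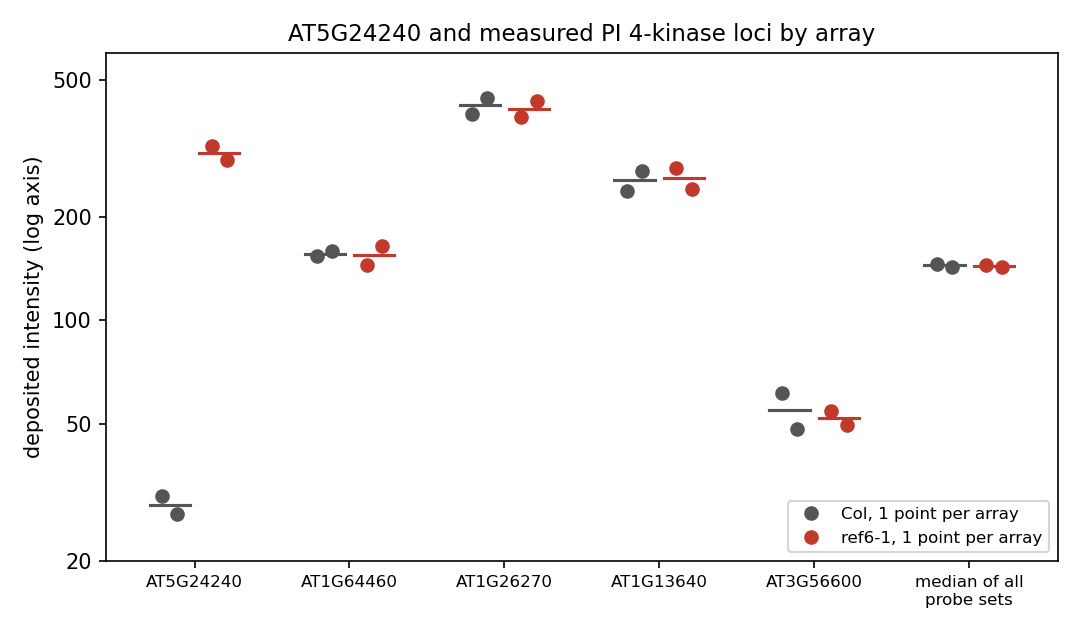
Deposited intensity (log axis) of AT5G24240, of the 4 measured PI 4-kinase loci and of the median probe set, with 1 point per array (Col grey, ref6-1 red) and a bar at the mean of 2 arrays. AT5G24240 moves from about 29.1 to 308, while the other loci have overlapping genotypes, as most probe sets do (35.6% of all do not overlap). Heights of different probe sets are not comparable as transcript amounts.

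Relative to the other probe sets, AT5G24240 moved from the dim end of the array to its upper part. In Col 8.34% of the probe sets had a lower mean intensity, and in ref6-1 70.4% did. The share of dimmer probe sets was 8.44% and 8.47% on the Col arrays and 71.4% and 69.4% on the ref6-1 arrays, so each array of a genotype placed the gene in nearly the same position. Of the 2275 probe sets below the 10th percentile of Col intensity, which was 32.3, AT5G24240 was the only 1 whose ref6-1 mean exceeded the ref6-1 median of 144. The next highest of these 2275 reached 70.3.

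Whether the Col signal of about 29.1 reflects a low level of transcript or none cannot be told from these values, since detection calls were not used here. Control probe sets for the bacterial trp gene gave a scale for dim signals. Those at the 3′ end and the middle of that gene read between 9.56 and 13.01 over the 4 arrays, below AT5G24240 in Col. The one at its 5′ end read between 56.1 and 68.0, above AT5G24240 in Col and below it in ref6-1. The ratio of 10.6 is one of deposited intensities and rests on an uncertain wild-type level, so it is not an exact fold of transcript amounts.

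**Figure D2:**
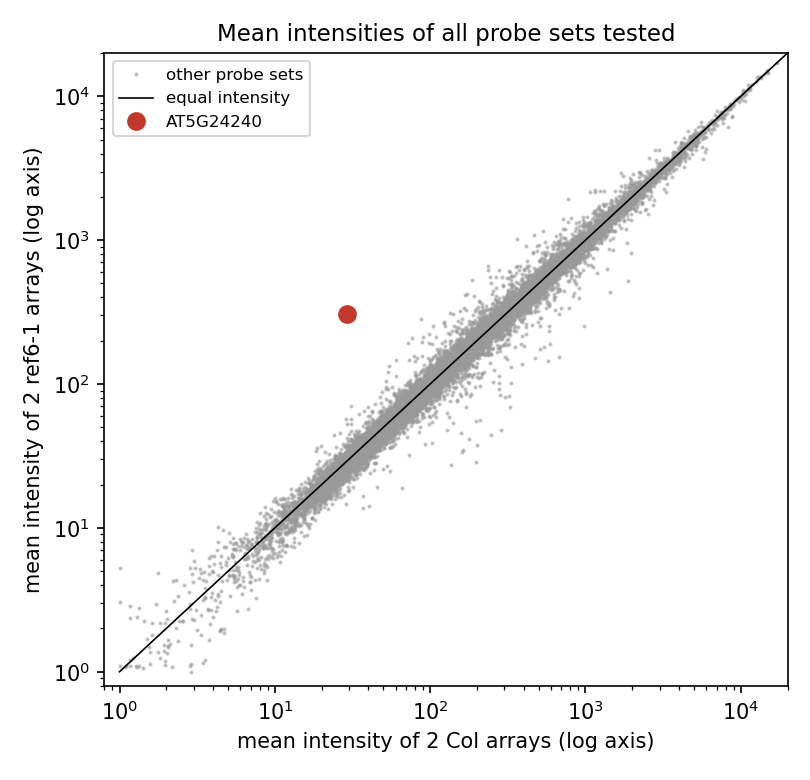
Mean intensity of the 2 ref6-1 arrays against that of the 2 Col arrays (both axes log) for the 22746 probe sets analysed, with the line of equal intensity. AT5G24240 (red), at 29.1 and 308, stands apart from the cloud of other probe sets.

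The rise was then set against all probe sets of equal wild-type intensity. Within 10% of the gene's own Col mean, that is from 26.2 to 32.0, lay 673 other probe sets. In ref6-1 their mean intensities had a median of 28.3, with the 5th percentile at 21.8 and the 95th at 35.7. The highest of the 673 was 70.3, against 308 for AT5G24240. The spread of these probe sets between genotypes was thus small compared with the change of the gene.

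On the log2(intensity + 16) scale the 673 differences had a median of -0.03 and an SD of 0.139, and they ran from -0.46 to 0.88. AT5G24240, at 2.84, lay 1.96 above the highest of them and 20.7 SDs from their median. These figures place the gene and are no test, because it was picked for this difference. A ratio of means above 2 was reached by 2 of the 673 (0.297%), whereas 0.207% of all probe sets had one. In the limma test over all probe sets, at a Benjamini-Hochberg adjusted p of 0.05, 4 of the 673 passed, all of them higher in ref6-1, which is 0.594% of the window against 1.48% called over the array in either direction, 0.774% higher and 0.708% lower.

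The probe set with the highest difference in the window after AT5G24240 is not listed in the annotation used. It read 32.2 and 29.6 in Col and 69.7 and 70.9 in ref6-1, so its genotypes did not overlap either. This probe set was among the 4 of the window that passed the limma test (adjusted p = 0.00227). The window held 489 probe sets with a single named gene besides AT5G24240. Among them AT1G36600, CYP71B36, a cytochrome P450 gene, and AT2G28990 had the highest differences, at 0.42, 0.40 and 0.36. AT2G47120, TRM24 and AT5G46295 had the lowest, at -0.44, -0.42 and -0.42. These 6 were picked as the extremes of the window, and none passed the test over all probe sets, with limma adjusted p between 0.0989 and 0.227.

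**Figure D3:**
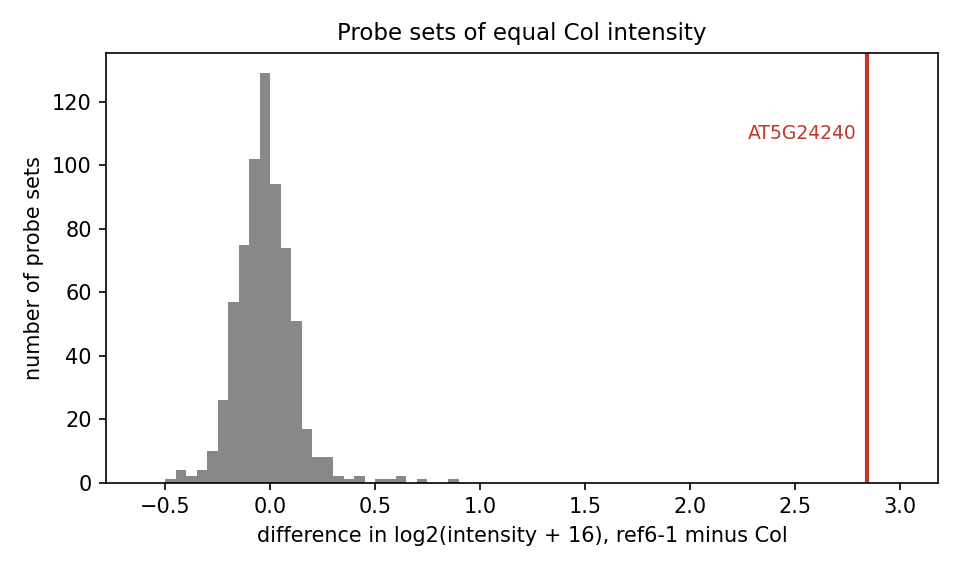
Histogram of the difference in log2(intensity + 16), ref6-1 minus Col, for the 673 probe sets whose Col mean lay within 10% of that of AT5G24240 (bars of width 0.05; height is the number of probe sets), with AT5G24240 as a red line at 2.84. The bars end at 0.88.

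Within each genotype AT5G24240 varied like its peers. The 2 Col arrays differed by 0.11 in log2(intensity + 16), where the median of the 673 was 0.14 and their 95th percentile 0.38. The 2 ref6-1 arrays differed by 0.13, where the median was 0.10 and the 95th percentile 0.32. At the intensity the gene reached in the mutant the picture was the same: for the 1140 other probe sets within 10% of its ref6-1 mean, the median difference between the ref6-1 arrays was 0.11. The Col means of these 1140 had a median of 306 and a lowest value of 87.4, so none of them was as dim in Col as AT5G24240.

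The size of its lead depended on how change was counted. By the ratio of means the probe set after AT5G24240 had 5.22, but it rested on the floor of the data: it was listed at 1, the lowest value deposited, on both Col arrays and at 3.97 and 6.47 on the ref6-1 arrays. By the log2(intensity + 16) difference the 5 probe sets next below lay between 1.33 and 1.52, so AT5G24240 stood 1.32 above the nearest. By the plain increase in intensity, 279 units, AT5G24240 ranked only 205 among all probe sets, because many brighter ones gained more. In the other direction the lowest log2(intensity + 16) difference on the array was -2.02, and the largest fall in the ratio of means was 6.86-fold, so on these 2 scales no probe set fell by as much as this gene rose.

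Of those 5 next probe sets, AT4G29780 and AT2G29500 are named as single genes. AT4G29780 read 186 and 184 in Col and 537 and 523 in ref6-1. AT2G29500 read 230 and 245 in Col and 625 and 613 in ref6-1. In both genes the genotypes were clearly apart, with ratios of 2.87 and 2.61, against 10.6 for AT5G24240. No single gene is given for the other 3 in the annotation, and the one closest to AT5G24240 in difference read 89.4 and 85.5 in Col and 301 and 262 in ref6-1.

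Among other phosphatidylinositol 4-kinase loci, the 4 measured showed no comparable rise. The list of such loci, 11 besides AT5G24240, came from general knowledge of the family, and the 4 with a named probe set carry only locus codes in the tables used. None of the 4 passed the limma test in either direction (0 higher, 0 lower), where 1.48% of all probe sets did. At an unadjusted limma p of 0.05 the count was also 0, where 8.50% of all probe sets passed. Their median log2 difference was -0.02, as was that of all probe sets.

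AT1G64460 read 154 and 159 in Col and 145 and 165 in ref6-1. AT1G26270 read 400 and 445 in Col and 391 and 434 in ref6-1. AT1G13640 read 238 and 273 in Col and 277 and 241 in ref6-1. In each of these 3 the genotypes overlapped. AT3G56600 read 61.3 and 48.4 in Col and 54.3 and 49.5 in ref6-1, again with overlap. Most probe sets overlapped, since the genotypes did not overlap in 35.6% of all. The log2 differences of the 4 lay between -0.06 and 0.02, with limma adjusted p between 0.967 and 0.992.

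Missing the threshold does not show that a gene was unaltered, so the intervals are given. The 95% interval of the log2 difference ran from -0.25 to 0.22 for AT1G64460 and from -0.27 to 0.20 for AT1G26270. It ran from -0.23 to 0.27 for AT1G13640 and from -0.32 to 0.21 for AT3G56600. Each interval allows a modest change in either direction, and the highest upper bound, 0.27, is far from the 2.84 of AT5G24240. The other 7 loci of the list, among them PI4K GAMMA 4 and PI4K GAMMA 7, had no named probe set and were not analysed here.

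Other genes of phosphoinositide metabolism, together with 2 reported binding partners of a gamma-type kinase, were looked at in the same way. These lists held 38 loci, of which 4 had a named probe set. None of the 4 passed in limma (0 higher, 0 lower), against 1.48% of all probe sets, and 0 had an unadjusted p under 0.05, against 8.50%. Of the phosphatidylinositol 4-phosphate 5-kinases, which use the product of the 4-kinases, 3 of 11 were measured. The 2 of these 3 with the smallest unadjusted p were PIPK11 and AT1G60890. PIPK11 read 43.0 and 33.8 in Col and 33.3 and 34.2 in ref6-1, a log2 difference of -0.12 (limma adjusted p = 0.907). AT1G60890 read 94.4 and 84.0 in Col and 87.3 and 101 in ref6-1, a difference of 0.07 (limma adjusted p = 0.952). Both showed overlapping genotypes, as most probe sets did, and so did the third, AT1G10900, at 0.05.

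Phospholipases C cleave the product of the 5-kinases, and 1 of 9 loci was measured. That locus, AT3G55940, read 97.0 and 100 in Col and 104 and 106 in ref6-1. Its genotypes did not overlap, as those of 35.6% of all probe sets did not, and its log2 difference of 0.08 did not pass (limma adjusted p = 0.929). Its 95% interval ran from -0.14 to 0.30. The phosphatidylinositol synthases, the 3-kinase group, the SAC-domain phosphatases, and RPN10 and UFD1, which were reported to bind a gamma-type kinase, had no named probe set. PIPK11 apart, the measured loci of these lists are known here by code only.

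The measured loci around AT5G24240 on chromosome 5 did not move with it. The 5 nearest measured loci on each side, in the gene order of the RefSeq table, had log2 differences from -0.09 to 0.12 with a median of -0.05. None of the 10 passed the limma test (0 higher, 0 lower), against 1.48% of all probe sets, and 0 had an unadjusted p under 0.05, against 8.50%. The genotypes overlapped in all 10, whereas they did not in 35.6% of all probe sets. The adjusted p of the 10 lay between 0.909 and 0.992.

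The immediate neighbours were both measured. AT5G24230, whose annotated span overlaps that of AT5G24240 in the RefSeq table, read 109 and 93.1 in Col and 97.6 and 109 in ref6-1. Its log2 difference was 0.03, with a 95% interval from -0.22 to 0.28. AT5G24260, the next annotated protein-coding locus on the other side, read 198 and 205 in Col and 186 and 236 in ref6-1. Its difference was 0.05, with an interval from -0.22 to 0.32. The upper bound of either interval is far from 2.84.

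The remaining 8 lay farther out, between 4 and 14 protein-coding loci away. AT5G24210, AT5G24170, AT5G24165 and AT5G24130 had log2 differences of -0.09, -0.09, -0.03 and -0.08. On the other side AT5G24313, AT5G24316, AT5G24320 and AT5G24340 had -0.01, -0.09, -0.07 and 0.12. Over all 10 neighbours the highest upper bound of a 95% interval was 0.38, for AT5G24340. Loci in between that have no named probe set, among them AT5G24220 and SOS3, were not analysed here.

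**Figure D4:**
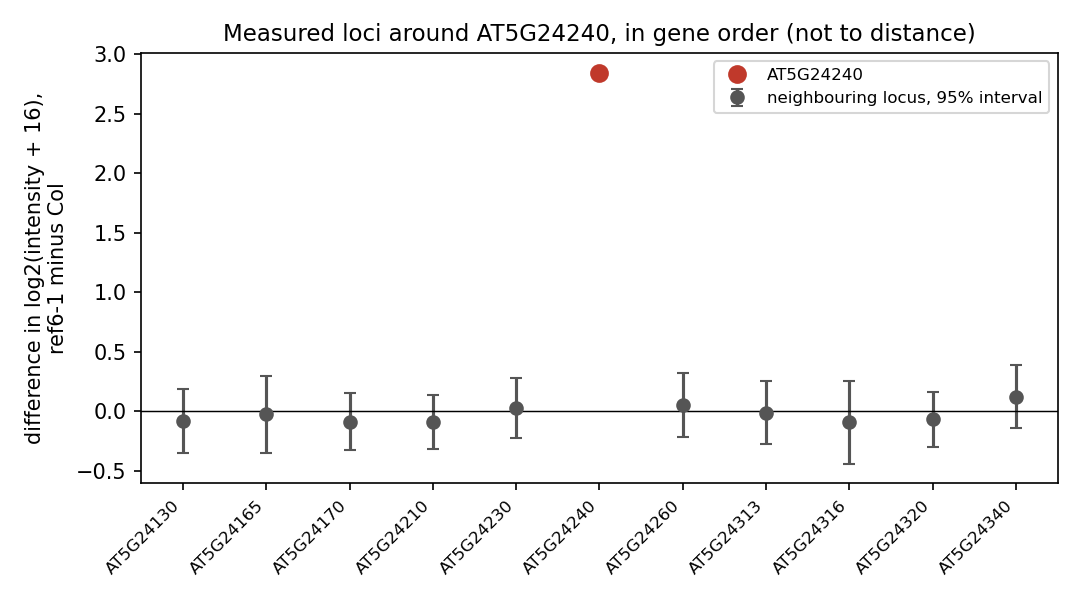
Difference in log2(intensity + 16), ref6-1 minus Col, for AT5G24240 (red, 2.84, with no interval since it was chosen for this value) and for the 5 nearest measured loci on each side in gene order, with 95% intervals from limma. The 10 neighbours lie between -0.09 and 0.12 and every interval includes 0.

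Genes with a like pattern were sought among probe sets with a single named gene, as a description over 4 arrays. By the distance over the 4 arrays between log2(intensity + 16) values, which counts both level and change, the nearest were AT4G27654, AT3G10930, AT1G19320, AT3G53310 and AT5G37670. Their distances lay between 1.65 and 2.21 log2 units, so none came close. AT4G27654, the nearest, read 89.9 and 62.3 in Col and 240 and 179 in ref6-1, a smaller rise than that of AT5G24240. The first 4 had log2 differences from 1.10 to 1.295. AT5G37670 had 0.70, with ref6-1 arrays at 187 and 101, and it did not pass the limma test (adjusted p = 0.301). Without ref6-1 replicate 2 it passed (limma adjusted p = 0.000461), and without Col replicate 1 it also passed (adjusted p = 0.0215). Its difference ranged from 0.30 without ref6-1 replicate 1 (limma adjusted p = 0.716) to 1.10 without ref6-1 replicate 2, and was 0.49 without Col replicate 2 (adjusted p = 0.253).

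By Pearson correlation over the 4 arrays, among the 13 other named probe sets with a log2 difference of at least 1, which 0.127% of all probe sets reached, the most alike were AT4G29780, AT5G17350, AT2G29500, AT5G65300 and AT5G48570. Their correlations lay between 0.995 and 1.00, but the lowest of all 13 was 0.946. With 2 arrays in each of 2 genotypes that were required to differ, such values are nearly given, and they rank genes weakly. AT5G48570, also called FKBP65 or ROF2 and belonging to the FKBP class of peptidyl-prolyl isomerases, read 743 and 799 in Col and 1904 and 1974 in ref6-1. Its ratio of means was 2.51, and those of the 5 ran from 2.29 for AT5G17350 to 2.87 for AT4G29780. None of them approached the 10.6 of AT5G24240.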

How the data were processed

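The deposited values are the authors' linear intensities, 1 for each probe set on each array. The sources used here do not say how they were summarized, background-corrected or normalized. Per the labels' protocols, RNA was extracted with Trizol, and 10 ug of it went into biotinylated cRNA. The deposited intensities had a lowest value of 1, which 10 to 17 probe sets held per array.

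The 64 control probe sets were left out, and 22746 were analysed as log2(intensity + 16) with no further scaling. The 2 genotypes were compared by the moderated two-sided test of limma 3.58.1 under R 4.3.3 (lmFit, then eBayes with trend). The Benjamini-Hochberg adjustment ran over all 22746, and the threshold was 0.05. All p-values and 95% intervals are limma's, and intervals are not adjusted. In 5 simulated data sets of 22746 probe sets, 200 were changed by planted folds of intensity + 16. The test recovered 60.0% of the 1.5-fold and 98.8% of the 2-fold changes, and 5.43% of its calls were false. For a dim probe set such a fold is a larger ratio of intensities. These shares therefore do not hold there for an equal ratio of intensities. The simulation drew from the model the test assumes.

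Names came from the platform annotation through gene IDs of the RefSeq table (TAIR10.1). Of the probe sets, 13513 had a single gene, 503 had several and 8730 had no entry. No coordinates are printed, since no source used here names the array's build.

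The gene and the lists were chosen with earlier results of these data known. The genes named are AT5G24240, the measured 4-kinase loci, and from each other phosphoinositide list those that passed or the 2 with the smallest unadjusted p. Added to these are the 5 nearest measured loci on each side, the 5 most alike by distance and by correlation, the 5 next in difference, the 3 highest and 3 lowest in the window, and REF6. AT1G10900 and the unlisted second probe set of the window were given after their values were seen.

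Replicate numbers are shared by the genotypes, but the labels tie them to no batch, so they were not used as pairs.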

Additional observations from a re-analysis of the deposited data

How the results depend on the processing

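AT5G24240 kept the highest difference among probe sets of equal Col intensity under quantile normalization, median centring, pseudocounts of 1 and 64, windows of 5% and 25%, and without each array in turn. Its log2 difference was 3.36 with a pseudocount of 1 and 1.998 with 64, as adding a constant to a dim value must give, and it lay between 2.78 and 2.91 with any 1 array removed. The counts of 0 among the 4-kinase, phosphoinositide and neighbouring loci were 0 under every alternative run, with fewer loci tested without the dimmest 30% of probe sets. Over all probe sets, 337 were called, 1636 with the replicate block, and from 273 to 533 with an array removed (533 without Col replicate 2). The cause was not tested. The block and the pairing it assumes rest on numbers alone: the replicate differences of the 2 genotypes correlated at 0.279 across probe sets. Besides AT5G37670, the block called AT1G36600, CYP71B36, AT2G47120, TRM24 and AT5G46295. AT1G36600 also passed after quantile normalization (limma adjusted p = 0.0469) and AT5G46295 without Col replicate 2 (adjusted p = 0.0328). After quantile normalization RCA (AT2G39730) was at -0.00669 and AT5G24313 at 0.0277. Loci near 0 changed sign when 1 array was left out, and none of them passed. The 4-kinase loci ranged from -0.0961 to 0.0693 (AT1G64460), -0.107 to 0.0430 (AT1G26270), -0.0745 to 0.115 (AT1G13640) and -0.188 to 0.0762 (AT3G56600). The 5-kinase loci ranged from -0.133 to 0.242 (AT1G10900), -0.0239 to 0.156 (AT1G60890) and -0.244 to 0.000811 (PIPK11, AT1G01460), and LHCB4.1 (AT5G01530) from -0.0552 to 0.0875. The neighbours ranged from -0.228 to 0.0680 (AT5G24130), -0.213 to 0.156 (AT5G24165), -0.0715 to 0.128 (AT5G24230), -0.109 to 0.211 (AT5G24260), -0.147 to 0.117 (AT5G24313), -0.284 to 0.0948 (AT5G24316), -0.162 to 0.0212 (AT5G24320) and -0.0222 to 0.264 (AT5G24340). A lone array was assumed to vary like the other genotype. The unstated background correction limits what the dim Col signal can show.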
